A study of Mus musculus with 8 samples.

Results

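Lipid-anchored proteins reach the photoreceptor outer segment and the primary cilium through a small transport system, and 10 of its genes were followed here by symbol among 31053 Ensembl identifiers. Each matched 1 identifier, and 9 are described, namely Arl3, Rp2, Unc119, Unc119b, Pde6d, Rpgr, Rpgrip1, Aipl1 and Tulp1. They were chosen for their known roles and with earlier results of these data known, so their counts are not independent of the data. The samples were retinal pigment epithelium (RPE) cells isolated at postnatal day 29 from untreated C57/Bl6 mice, with 4 Bbs8+/+ and 4 Bbs8-/- libraries from littermates, and the study's methods take each animal as a replicate. Bbs8, also named Ttc8, encodes a subunit of the BBSome, a coat complex that moves membrane proteins out of cilia. The knockout was present in every tissue of the animal and was not limited to the RPE, and the labels give sex as not determined. Counts per gene came from QuantSeq libraries, which read the 3′ end of each polyadenylated transcript, so a level does not depend on transcript length. Total gene counts ranged from 2495094 to 3093428 in Bbs8+/+ and from 2389835 to 2736289 in Bbs8-/-. A floor of 3 counts corresponded to between 0.970 and 1.26 CPM, the count scaled to library size, and it covers counting error only.

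ARL3 is a small GTPase that, when bound to GTP, opens the lipid-binding pockets of its carriers and releases their cargo. RP2 makes ARL3 hydrolyse its GTP. UNC119 and UNC119B carry acylated proteins such as transducin alpha, whereas PDE6D carries prenylated proteins such as the catalytic subunits of rod phosphodiesterase. RPGR and RPGRIP1 sit at the connecting cilium of the photoreceptor, AIPL1 is a chaperone of phosphodiesterase 6, and TULP1 supports protein traffic to the outer segment.

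The targeted gene was examined first. Ttc8 had 105, 142, 144 and 116 counts in the Bbs8+/+ libraries and 15, 5, 14 and 15 counts in the Bbs8-/- libraries. No Bbs8-/- count came near the Bbs8+/+ range. On the TMM-scaled CPM scale the mean was 47.6 ± 10.3 (SD, n = 4) against 4.70 ± 1.97, a log2 fold change of -3.34 with a standard error of 0.294 and an edgeR adjusted p of 2.475e-11. Because the reads lie at the 3′ end, these counts give the level of transcripts that reach that end and do not show the deleted part.

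The tissue label was compared with 12 RPE markers. Ttr, the transthyretin gene, was the most abundant of them with 59.1% of their summed level. Rpe65, the visual cycle isomerase, had means of 4640 CPM in Bbs8+/+ and 3916 CPM in Bbs8-/-, and Rgr, an RPE opsin, had 4715 and 4687 CPM. Best1, the bestrophin chloride channel, was near the floor, with 0, 2, 4 and 5 counts in Bbs8+/+ and 0, 0, 5 and 5 counts in Bbs8-/-. Transcripts of rods were also abundant, as described with the marker lists. In bulk RNA, fewer cells of a type, less RNA per cell and less carry-over of neighbouring tissue cannot be told apart. The paper reported photoreceptor tissue as a contaminant of its RPE material, and the part of that tissue in these levels was not tested. Bbs8+/+ replicate 1 was the lowest of the 8 libraries for Pde6d and for the cargo gene Gngt1, and both are given with and without it. Among the 9 genes it was the highest library for Unc119, Tulp1, Rpgr and Rpgrip1. Without it their log2 fold changes were smaller in size, at -1.03, -1.05, -0.48 and -0.55, and Rpgr had an edgeR adjusted p of 0.2901.

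Transcripts linked to sex were examined after the values were seen, since Rp2 and Rpgr lie on the X chromosome. Xist, the X-inactivation transcript, was higher in Bbs8-/-, at 207 ± 5.41 CPM against 60.1 ± 13.2 CPM (SD, n = 4). The groups did not overlap, and its log2 fold change was 1.78 (edgeR adjusted p = 2.233e-13). The Y-linked genes Ddx3y, Eif2s3y, Uty and Kdm5d did not pass the threshold, and the groups overlapped for all but Eif2s3y, which was lower in Bbs8-/- (edgeR adjusted p = 0.09355). Xist and these 4 genes were each above 3 counts in all 8 libraries, so transcripts of both kinds were present in every library. Whether each library held 1 animal cannot be told from the labels, and n = 4 therefore counts libraries. The part of sex in the levels of Rp2 and Rpgr, or in any other genotype difference given here, was not tested.

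All 9 genes passed the low-count filter, which asked for 1 CPM or more in 4 or more libraries. Of these, 5 were lower in Bbs8-/- at an adjusted p under 0.05, where 6.8% of the 12889 genes tested were called lower. None of the 9 was higher by edgeR, nor by DESeq2 or at an unadjusted edgeR p under 0.05 (0 genes each), where 5.46% of all genes tested were called higher. For 6 of the 9 the ranges of Bbs8+/+ and Bbs8-/- were separate, as they were for 16% of all genes tested. The median log2 fold change of the 9 was -0.68, and that of all genes tested was 0.0217.

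**Figure D1:**
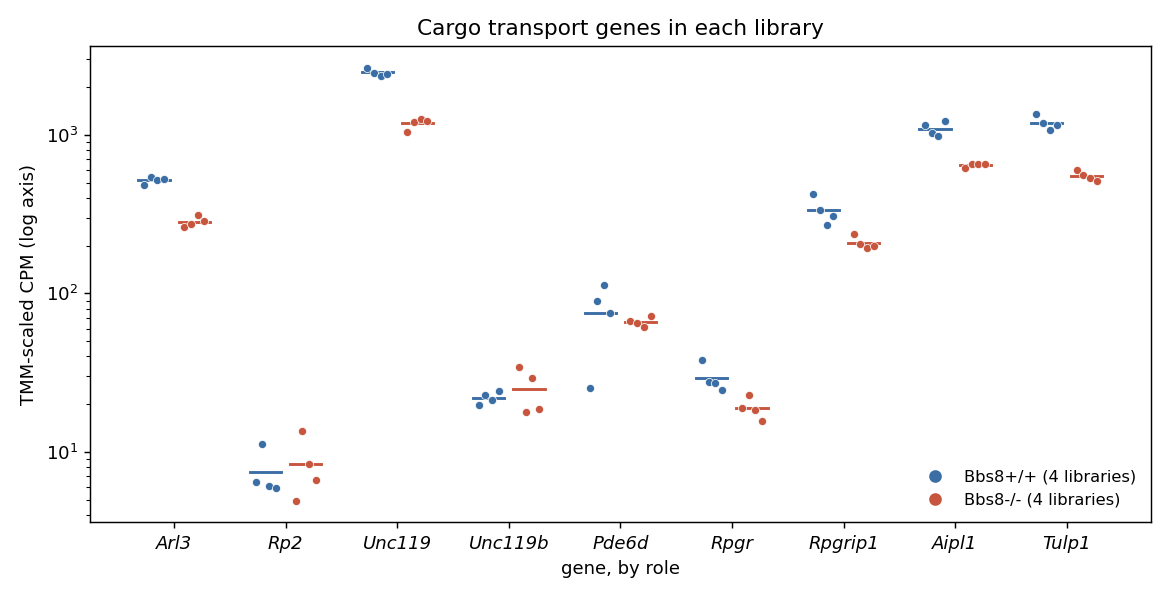
TMM-scaled CPM (log axis) of the 9 transport genes in each library, ordered by role. Points are single libraries and bars are group means, and the Bbs8-/- points of Unc119 lie between 1044 and 1253 CPM, below the lowest Bbs8+/+ point of 2366 CPM.

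The GTPase at the centre of the system was lower in Bbs8-/-. Arl3 (chr19:46531096-46573198, minus strand, GRCm38) stood at 484, 544, 518 and 528 CPM in Bbs8+/+ and at 261, 274, 314 and 286 CPM in Bbs8-/-. All Bbs8-/- libraries were below all Bbs8+/+ libraries. The log2 fold change was -0.87 (SE 0.0852, edgeR adjusted p = 3.57e-10).

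Rp2 (chrX:20364481-20405653, plus strand), the GTPase-activating protein of ARL3, was the least abundant of the 9, at 6.43, 11.2, 6.13 and 5.95 CPM in Bbs8+/+ and 4.93, 13.6, 8.40 and 6.64 CPM in Bbs8-/-. The groups overlapped, and 1 library in each group was the highest by a clear margin. Its log2 fold change of 0.18 had a 95% interval from -0.68 to 1.04 (edgeR adjusted p = 0.8565), so the direction was not determined. Its SD was 33.9 and 44.8% of the mean in Bbs8+/+ and Bbs8-/-, above a counting error of 22.4 and 21.1%. Rp2 had 1.42 ± 0.430 counts per 100 Arl3 counts in Bbs8+/+ and 2.96 ± 1.37 in Bbs8-/- (SD, n = 4), and these ratios overlapped between the genotypes.

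Among the carriers, Unc119 was the most abundant of the 9 genes in both genotypes. The gene (chr11:78343482-78349164, plus strand) stood at 2658, 2450, 2366 and 2426 CPM in Bbs8+/+ and at 1044, 1210, 1253 and 1225 CPM in Bbs8-/-. The groups were far apart relative to the spread within them. The log2 fold change was -1.06 (SE 0.0647, edgeR adjusted p = 7.391e-16).

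Unc119b (chr5:115122550-115134975, minus strand), the paralogue of Unc119, stood at 19.6, 22.8, 21.3 and 24.2 CPM in Bbs8+/+ and at 34.1, 17.9, 29.2 and 18.5 CPM in Bbs8-/-. The Bbs8-/- libraries lay on both sides of the Bbs8+/+ libraries. Its log2 fold change was 0.18 with a 95% interval from -0.33 to 0.68 (edgeR adjusted p = 0.747), and it was -0.01 without Bbs8-/- replicate 1. Within each library, Unc119b made up 0.733, 0.920, 0.890 and 0.986% of the counts of both paralogues in Bbs8+/+ and 3.16, 1.46, 2.28 and 1.49% in Bbs8-/-. This share was higher in every Bbs8-/- library, with Unc119 as the larger part of the pair throughout. Because Unc119 itself was lower, 61.1% of all genes tested did not overlap in their ratio to it.

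Pde6d (chr1:86542994-86582629, minus strand), the carrier of prenylated proteins, stood at 25.4, 89.1, 113 and 74.7 CPM in Bbs8+/+ and at 66.5, 64.9, 61.6 and 71.6 CPM in Bbs8-/-. Bbs8+/+ replicate 1 was the lowest of the 8 libraries, while the other Bbs8+/+ libraries were all above the Bbs8-/- libraries. With all libraries the log2 fold change was -0.18 (SE 0.222, edgeR adjusted p = 0.6965). Without Bbs8+/+ replicate 1 it was -0.47 with an edgeR adjusted p of 0.02496, and without Bbs8+/+ replicate 3 it was 0.07, with adjusted p between 0.02496 and 0.9185 over its alternatives. The call for Pde6d therefore rested on 1 library.

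For the RPGR complex, the 2 genes differed in level and in their calls. Rpgr (chrX:10073621-10216920, minus strand), whose protein binds RPGRIP1 at the connecting cilium, stood at 37.9, 27.6, 27.4 and 24.5 CPM in Bbs8+/+ and at 18.9, 22.9, 18.4 and 15.7 CPM in Bbs8-/-. The groups did not overlap, but the log2 fold change of -0.63 (SE 0.239) did not pass the threshold, with an edgeR adjusted p of 0.0819. Srpx, which overlaps Rpgr on the same strand, had between 0 and 5 counts a library.

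Rpgrip1 (chr14:52110704-52163546, plus strand), which anchors RPGR, stood at 422, 336, 270 and 308 CPM in Bbs8+/+ and at 236, 205, 193 and 198 CPM in Bbs8-/-. Replicate 1 was the highest library of each group, and the groups did not overlap. The log2 fold change was -0.68 (SE 0.108, edgeR adjusted p = 1.021e-05). The 3′ end of Rpgrip1 overlaps that of Supt16 on the opposite strand, which had 276, 226, 195 and 274 counts in Bbs8+/+ and 148, 193, 242 and 222 in Bbs8-/-, and with no stated strand setting the reads of the shared stretch cannot be told apart. Rpgr had 8.83 ± 0.975 counts per 100 Rpgrip1 counts in Bbs8+/+ and 9.17 ± 1.54 in Bbs8-/- (SD, n = 4), with overlap.

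Aipl1 (chr11:72027963-72037509, minus strand), the chaperone that phosphodiesterase 6 needs to fold and assemble, stood at 1157, 1021, 983 and 1216 CPM in Bbs8+/+ and at 617, 651, 651 and 656 CPM in Bbs8-/-. The Bbs8-/- libraries lay within a narrow band below every Bbs8+/+ library. Its log2 fold change was -0.77 (SE 0.0747, edgeR adjusted p = 3.305e-10). Per 100 counts of Pde6b, a client of AIPL1, Aipl1 had 44.0, 35.1, 35.3 and 43.9 counts in Bbs8+/+ and 57.3, 65.4, 63.5 and 64.8 in Bbs8-/-, without overlap. Pde6b itself was lower in Bbs8-/-, and 72.2% of all genes tested did not overlap in their ratio to it.

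Tulp1 (chr17:28351515-28365222, minus strand), a tubby family protein of the photoreceptor, stood at 1351, 1193, 1075 and 1148 CPM in Bbs8+/+ and at 600, 561, 532 and 508 CPM in Bbs8-/-. No Bbs8-/- library reached the Bbs8+/+ range. The log2 fold change was -1.11 (SE 0.0771, edgeR adjusted p = 3.182e-14), and its interval overlapped that of Unc119.

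Promoter windows of 3 genes that were lower together are shown to compare the letters near their start sites, and these windows and the 3 motifs were chosen after the values were seen. The 9 genes matched RefSeq promoter windows of 300 bases on GRCm38.p6, 12 windows in all, and 32851 windows of that length were searched on both strands. TAATCC, the core recognised by the photoreceptor factor CRX, was in 7.06% of all windows and in 3 of the 12 windows, each of a different gene. TGCTGA, part of the sites of MAF family factors such as NRL, was in 19.5% of all windows and in 4 of the 12 windows, each of a different gene. GTTGCC, part of the X-box of RFX factors, was in 12.5% of all windows and in 1 of the 12 windows, that of Pde6d. Capitals mark these letters or their reverse complements, and the windows are written 5′ to 3′ on the strand of the gene. Aipl1 (chr11:72037460-72037759, minus strand) held TAATCC in 2 places and TGCTGA in 1, and Rpgrip1 (chr14:52110653-52110952, plus strand) held TAATCC and TGCTGA. Tulp1 (chr17:28365167-28365466, minus strand), which was also lower, held none of them in this window. The window of Arl3, another lower gene, held none either, while Unc119, lower too, held TAATCC and TGCTGA in different windows. Among genes that did not pass the threshold, Unc119b held TGCTGA and Rp2 and Rpgr held none of the motifs. A match describes letters and is not evidence of a bound site.
Aipl1: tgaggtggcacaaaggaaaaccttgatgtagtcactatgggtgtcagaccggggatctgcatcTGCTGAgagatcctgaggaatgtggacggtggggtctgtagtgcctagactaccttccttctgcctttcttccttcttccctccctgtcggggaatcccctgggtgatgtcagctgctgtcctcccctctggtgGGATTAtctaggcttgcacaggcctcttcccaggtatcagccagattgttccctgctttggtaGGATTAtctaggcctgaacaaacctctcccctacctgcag
Rpgrip1: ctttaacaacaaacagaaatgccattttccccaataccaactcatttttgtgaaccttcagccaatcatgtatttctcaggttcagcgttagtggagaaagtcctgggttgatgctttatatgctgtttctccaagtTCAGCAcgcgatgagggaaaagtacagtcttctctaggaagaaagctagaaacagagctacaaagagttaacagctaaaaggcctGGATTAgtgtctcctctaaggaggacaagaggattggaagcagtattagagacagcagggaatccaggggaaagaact
Tulp1: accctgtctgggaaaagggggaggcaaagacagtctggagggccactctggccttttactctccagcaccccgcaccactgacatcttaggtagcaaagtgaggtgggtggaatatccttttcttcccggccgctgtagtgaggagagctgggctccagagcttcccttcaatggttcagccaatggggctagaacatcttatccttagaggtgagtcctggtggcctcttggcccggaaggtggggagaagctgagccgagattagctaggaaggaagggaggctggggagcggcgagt

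In order of mean level in Bbs8+/+, Unc119 was followed by Tulp1, Aipl1, Arl3, Rpgrip1, Pde6d, Rpgr, Unc119b and Rp2. The library ranges of Tulp1 and Aipl1 overlapped, as did those of Pde6d and Rpgr, so these neighbours were not separated. For Pde6d and Rpgr the overlap rested on Bbs8+/+ replicate 1, where Pde6d stood at 25.4 CPM. In the remaining Bbs8+/+ libraries Pde6d was at 74.7 CPM or more, above the highest Rpgr value of 37.9 CPM. In Bbs8-/- the order had Aipl1 above Tulp1 and Unc119b above Rpgr, where the ranges of Unc119b and Rpgr overlapped. Summed over the 9 genes, counts made up 0.588, 0.558, 0.528 and 0.555% of all gene counts in Bbs8+/+ and 0.294, 0.310, 0.317 and 0.312% in Bbs8-/-.

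Patterns over the 8 libraries were compared with 6252 other genes of at least 20 CPM, by the root mean square difference of centred log2 levels. Centring used all 8 libraries, so the genotype difference is part of each pattern, and a near gene need not share regulation. Unc119 was nearest to Rims2 at 0.0537, Platr17 at 0.0598 and Rp1 at 0.075. These 3 had log2 fold changes of -1.05, -0.98 and -1.01, beside -1.06 for Unc119. Aipl1 was nearest to Map1b at 0.0733, Rbp3 at 0.0771 and the rod arrestin gene Sag at 0.0784. For Tulp1 the nearest were Ybx3 at 0.072, Mylk at 0.0882 and the photoreceptor guanylate cyclase gene Gucy2e at 0.0946. Arl3 was nearest to AI847159, Gm15706 and Pacsin1, Rpgr to Strbp, Itsn1 and Appl1, and Rpgrip1 to Sf3b2, Scaper and Shoc2. Pde6d had no neighbour as close, with Tdrd7 at 0.139, Gapdh at 0.169 and Xpnpep1 at 0.22, and Unc119b was nearest to Hps3, Aebp2 and Ap3b1. Rp2 was below 20 CPM and was not compared. Among the other 8 members themselves, Unc119 and Arl3 were the closest pair at 0.136 and Pde6d and Tulp1 the farthest at 0.862.

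The cargo and partners of the system were taken from 8 lists, of which 45 tested genes are described. Of these, 9 were lower and 3 were higher in Bbs8-/-, with a median log2 fold change of -0.1035 beside 0.0217 for all genes tested. Of all genes tested 6.8% were lower and 5.46% higher. In the acylated cargo list, the rod transducin gene Gnat1 fell from 8608 ± 387 to 3104 ± 167 CPM (SD, n = 4), whereas the cone transducin gene Gnat2 rose from 21.8 ± 4.33 to 35.6 ± 4.54 CPM. Their log2 fold changes were -1.47 (edgeR adjusted p = 1.454e-23) and 0.70 (edgeR adjusted p = 0.02967). Cys1 was below 8 CPM on average in both groups and did not pass the threshold. Unc119 had 29.4, 29.8, 28.3 and 27.5 counts per 100 Gnat1 counts in Bbs8+/+ and 31.1, 40.4, 41.1 and 40.6 in Bbs8-/-, without overlap, as for 73.0% of all genes tested in their ratio to Gnat1, which itself was lower.

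Of 8 prenylated proteins, 3 were lower, namely the rod phosphodiesterase subunits Pde6b and Pde6a, with log2 fold changes of -1.43 and -1.33, and the photoreceptor kinase gene Grk1 with -1.16. The cone transducin gamma gene Gngt2 was higher, at 14.2, 16.8, 20.8 and 16.4 CPM in Bbs8+/+ and 32.8, 46.2, 29.6 and 41.6 CPM in Bbs8-/- (log2 fold change 1.14, edgeR adjusted p = 0.0004374). Gngt1, its rod counterpart, stood at 433, 934, 1155 and 919 CPM in Bbs8+/+ and at 949, 684, 777 and 701 CPM in Bbs8-/-. Bbs8+/+ replicate 1 was the lowest of the 8 libraries, as for Pde6d. The log2 fold change of Gngt1 was -0.14 (edgeR adjusted p = 0.6092) with all libraries and -0.37 (edgeR adjusted p = 0.0002227) without Bbs8+/+ replicate 1, an alternative chosen after seeing the data. Pde6c, Inpp5e and Rab28 did not pass the threshold.

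**Figure D2:**
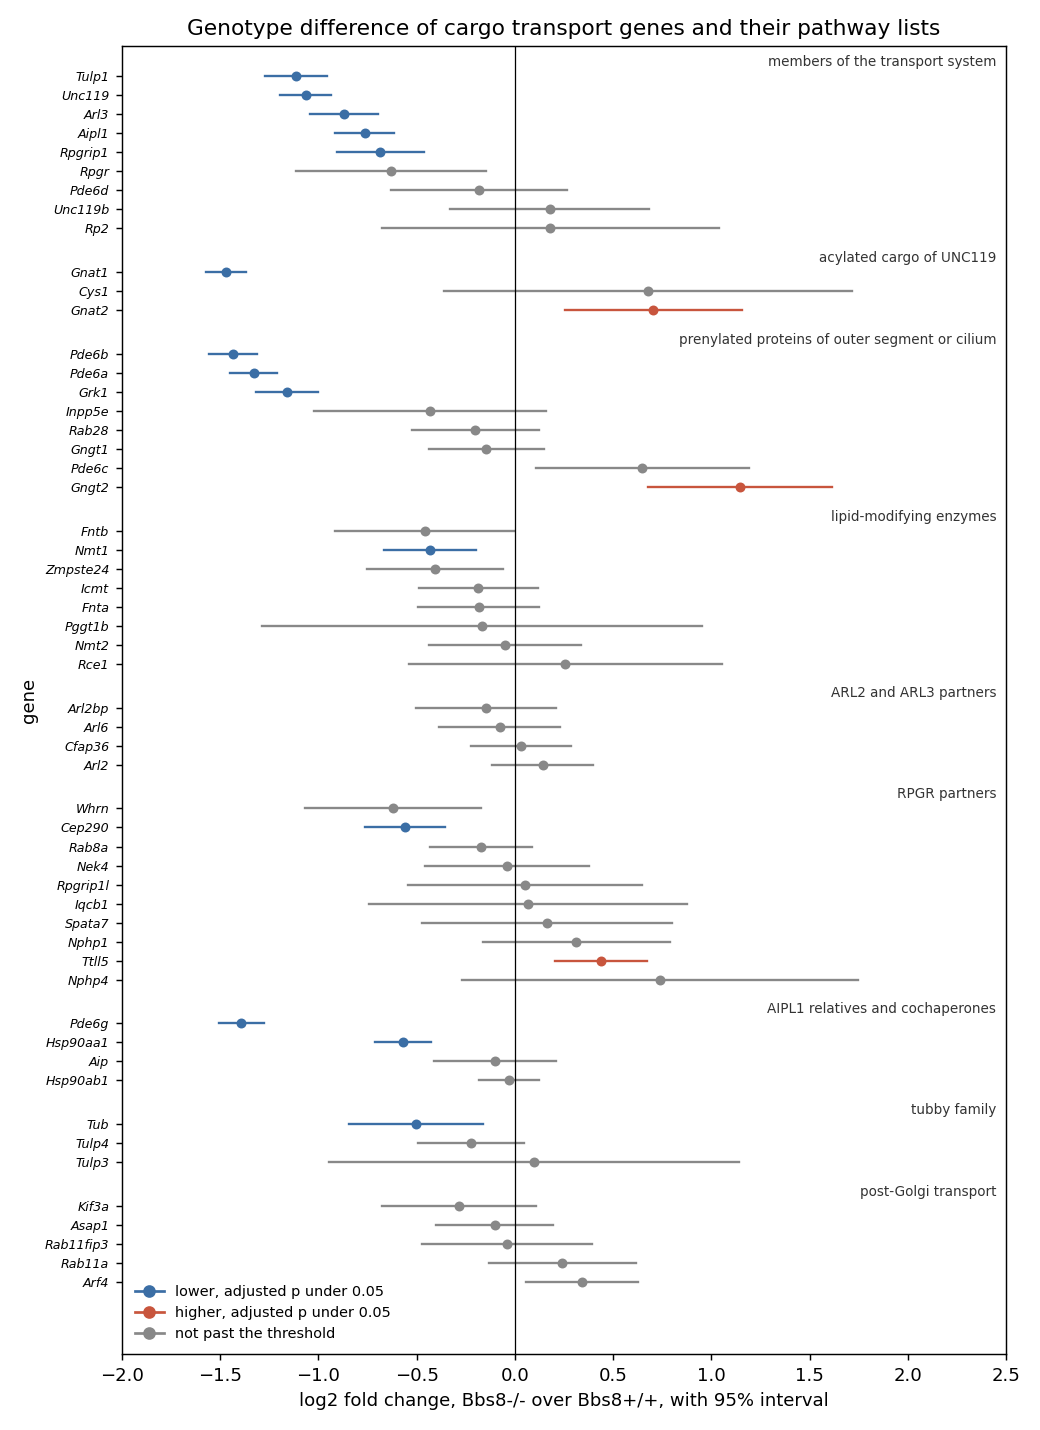
Log2 fold change of Bbs8-/- over Bbs8+/+ (horizontal axis) with its 95% interval for the 9 transport genes and 45 tested genes of the pathway lists. Blue marks 5 transport genes and 9 list genes that were lower, red marks 3 list genes that were higher, and grey marks genes not past an adjusted p of 0.05.

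Of 8 lipid-modifying enzymes, Nmt1, which attaches myristate, was lower (log2 fold change -0.43, edgeR adjusted p = 0.008109) and 7 did not pass the threshold. None of 4 ARL2 and ARL3 partners passed it by edgeR or DESeq2, and 0 had an unadjusted p under 0.05. None of 5 tested post-Golgi transport genes passed it by edgeR or DESeq2, and 1, the small GTPase gene Arf4, had an unadjusted edgeR p under 0.05 (log2 fold change 0.34). Among 10 RPGR partners, the ciliary gate gene Cep290 was lower (log2 fold change -0.56, edgeR adjusted p = 7.145e-05) and Ttll5, the enzyme that glutamylates RPGR, was higher (log2 fold change 0.44, edgeR adjusted p = 0.007674). Nphp4, a nephrocystin of the transition zone, had a log2 fold change of 0.74 that did not pass (edgeR adjusted p = 0.4057). Whrn went the other way with a log2 fold change of -0.62 and did not pass either (edgeR adjusted p = 0.05945). The groups did not overlap for Nphp4 or for Whrn. Of 4 AIPL1 relatives and cochaperones, Hsp90aa1 and the phosphodiesterase inhibitory subunit Pde6g were lower, with log2 fold changes of -0.57 and -1.39. In the tubby family Tub was lower (log2 fold change -0.50, edgeR adjusted p = 0.04149), Tulp3 and Tulp4 did not pass the threshold, and Tulp2 was not tested.

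Marker lists of other cell types moved with genotype beside these results. All 10 rod markers were lower in Bbs8-/-, and their summed level was 41057, 38464, 39303 and 40358 CPM in Bbs8+/+ and 16231, 16571, 16000 and 16742 CPM in Bbs8-/-. Of 7 markers shared by rods and cones 6 were lower, with sums of 8339, 7935, 8109 and 8423 CPM against 4000, 3858, 3864 and 3828 CPM and Prph2 as the most abundant. Of 6 cone markers 3 were higher and none was lower by edgeR, DESeq2 or an unadjusted p under 0.05 (0 each), with sums of 116, 122, 167 and 143 CPM against 214, 229, 226 and 225 CPM and Opn1sw as the most abundant. The groups did not overlap in any of these sums, and the exact permutation test gave a two-sided p of 0.0286, the smallest that 4 against 4 libraries allow, or 0.0531 adjusted over 13 lists. The part of photoreceptor transcripts in the lower levels of the 5 transport genes was not tested.

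Lens and erythrocyte markers were lower too. All 8 lens markers were lower, with sums of 2143, 2066, 2014 and 2139 CPM in Bbs8+/+ and 296, 303, 326 and 287 CPM in Bbs8-/-, and Cryba1 was the most abundant. All 5 erythrocyte markers were lower, with sums of 5717, 5152, 5355 and 5422 CPM against 2218, 2207, 2155 and 1985 CPM and Hbb-bs as the most abundant. Of the RPE markers 3 were lower and 2 higher, and of 6 Müller glia markers 1 was lower and 2 higher. The RPE sum, led by Ttr, was 40037, 39125, 40048 and 40170 CPM against 51002, 47270, 50047 and 48754 CPM, and the Müller glia sum, led by Glul, was 1348 ± 99.7 CPM against 1890 ± 63.9 CPM (SD, n = 4). The higher RPE sum rested on Ttr, because the other 11 RPE markers summed to 18591, 18951, 19043 and 19066 CPM in Bbs8+/+ and to 17780, 17325, 17703 and 17275 CPM in Bbs8-/-, lower without overlap. Each of these sums with all its genes also had an exact permutation p of 0.0286 (0.0531 adjusted). Of the remaining lists, 1 of 4 tested amacrine markers was higher and 2 of 6 fibroblast markers were lower, and no bipolar, endothelial, melanocyte or microglial marker passed the threshold by edgeR or DESeq2, with 1 melanocyte and 1 microglial marker at an unadjusted p under 0.05. The sums overlapped between genotypes for bipolar, amacrine, endothelial, fibroblast, melanocyte and microglial markers, with exact permutation p between 0.0857 and 0.2. Several of these sums rested mainly on 1 gene. Trpm1 made up 91.3% of the bipolar sum, Csf1r 87.7% of the microglial sum and Sox10 82.4% of the melanocyte sum. Slc6a9 made up 94.9% of the amacrine sum, and the other 4 amacrine markers summed to 13.9, 13.8, 10.6 and 13.4 CPM in Bbs8+/+ and to 26.3, 30.5, 26.8 and 30.1 CPM in Bbs8-/-, higher without overlap. No marker gene of these lists was at 0 in all 8 libraries, and the part of these cell types in the result was not tested.

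**Figure D3:**
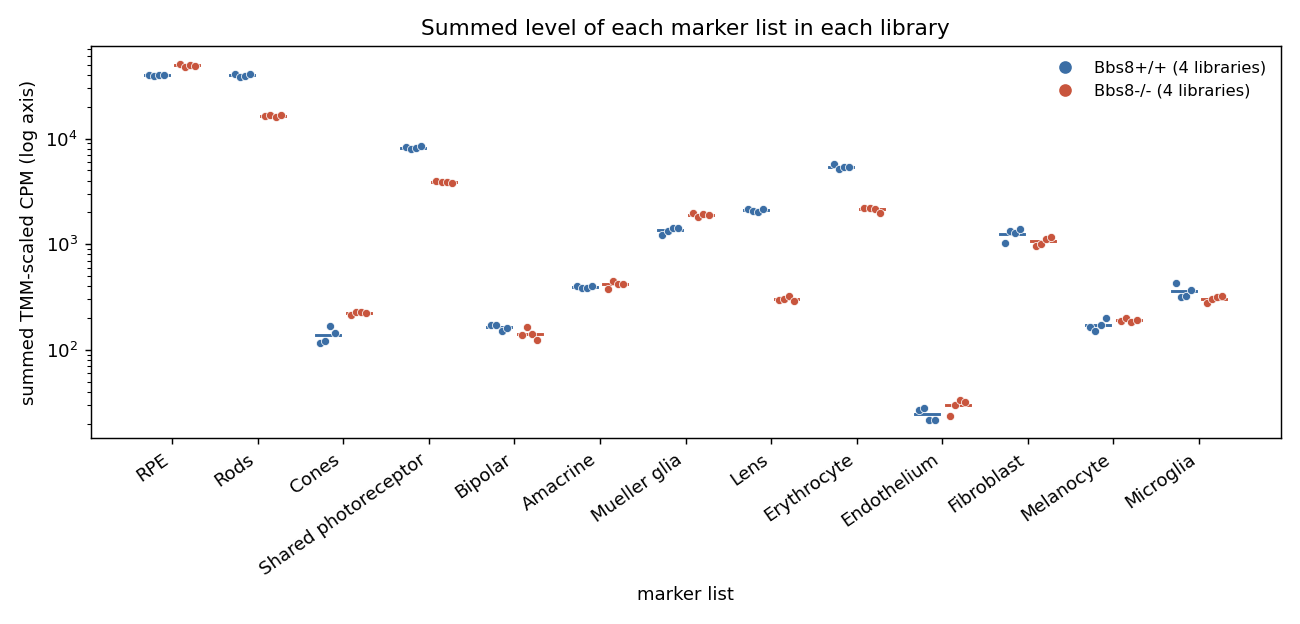
Summed TMM-scaled CPM (log axis) of each of 13 marker lists in each library, with points for libraries and bars for group means. The rod sums lie between 38464 and 41057 CPM in Bbs8+/+ and between 16000 and 16742 CPM in Bbs8-/-.

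The transport genes were then set against rod transcripts within each library, a ratio that needs no scaling between libraries. Per 1000 rod marker counts, Aipl1 had 28.2, 26.5, 25.0 and 30.1 counts in Bbs8+/+ and 38.0, 39.3, 40.7 and 39.2 in Bbs8-/-. Pde6d had 0.618, 2.32, 2.87 and 1.85 in Bbs8+/+ and 4.10, 3.91, 3.85 and 4.28 in Bbs8-/-. Both were higher in every Bbs8-/- library. Unc119 had 64.7, 63.7, 60.2 and 60.1 against 64.3, 73.1, 78.3 and 73.2, and Tulp1 had 32.9, 31.0, 27.3 and 28.4 against 37.0, 33.8, 33.3 and 30.4, both with overlap. In this measure 7 of the 9 genes did not overlap between the genotypes, all of them higher in Bbs8-/-. Since the rod counts themselves were lower in Bbs8-/-, 68.6% of all genes tested did not overlap in the same ratio, and 68.3% were higher without overlap.

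This ratio depended on the denominator. With the shared photoreceptor markers as denominator, 3 of the 9 genes did not overlap, beside 61.7% of all genes tested. Unc119b, Pde6d and Aipl1 did not overlap under either denominator. For Arl3, Rp2, Rpgr and Rpgrip1 the groups overlapped once the shared markers were used. The ratio of means of Unc119 was 1.16 per rod markers and 1.01 per shared markers, and that of Tulp1 was 1.12 and 0.974. Both genes overlapped under both denominators, so no direction is given for them. These ratios are a description with no test.

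**Figure D4:**
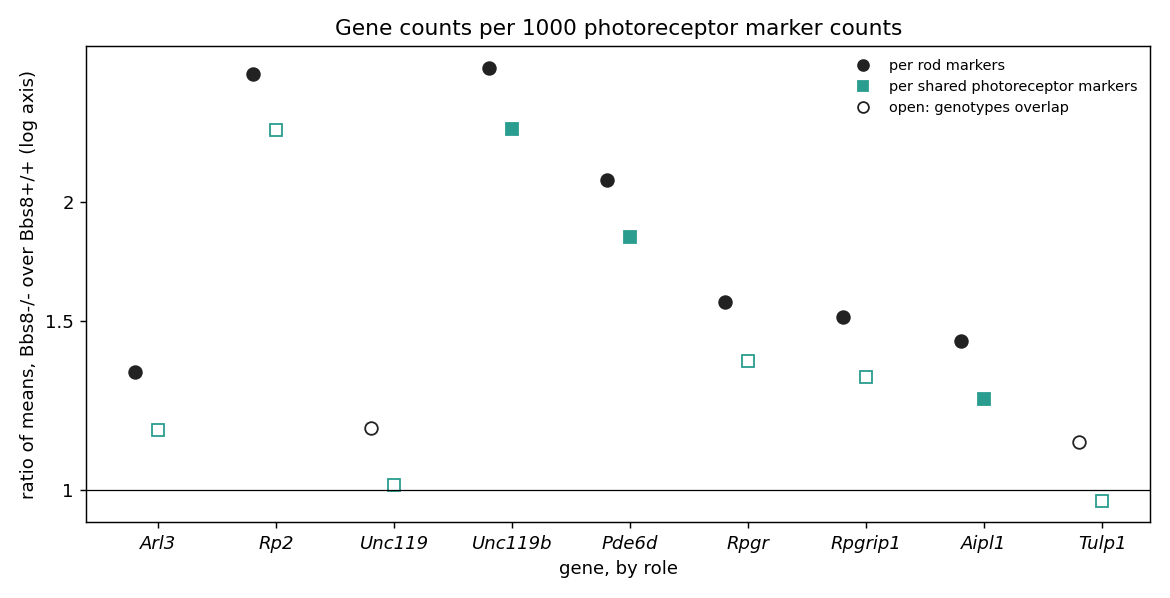
Ratio of group means, Bbs8-/- over Bbs8+/+ (log axis), of each gene's counts per 1000 marker counts under 2 denominators. Filled symbols mark genes whose libraries did not overlap between the genotypes, which held under both denominators for Unc119b, Pde6d and Aipl1.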

How the data were processed

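Per the study's methods and the submitters' processing notes, the authors trimmed the reads, aligned them with STAR to mm10 and counted uniquely mapped reads per Ensembl gene with htseq-count, and the deposited values were raw counts. The strand setting of the counting was not given in the sources used here. Reads outside annotated genes made up between 17.0 and 20.6% of reads and were left out of library sizes. Total gene counts ranged from 2389835 to 3093428.

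The 4 Bbs8-/- libraries were compared with the 4 Bbs8+/+ libraries by the edgeR 4.0.16 quasi-likelihood F test in R 4.3.3, two-sided, with TMM scaling and genes of at least 1 CPM in at least 4 libraries. Benjamini-Hochberg adjustment covered all 12889 genes tested, with a threshold of 0.05. Standard errors were derived from the F statistic. Marker list sums were compared by an exact permutation test in SciPy 1.17.1. The procedure was also run on simulated data, and no result of that run is given or used here.

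Named genes were Ttc8, the 10 members, genes of 8 pathway lists, genes of 13 marker lists, the 3 genes nearest in pattern to each member of at least 20 CPM, and the 5 largest falls and rises among members and pathway genes. The members and lists were chosen with earlier results of these data known. Alternatives were library size alone, RLE factors, TMM without photoreceptor, lens, erythrocyte and member genes, other filters, DESeq2 1.42.0, the likelihood ratio test, a replicate block, leaving out each library, an adjusted p under 0.01 and another denominator. Of these, 1 member, 1 pathway gene and 1 planned denominator are not reported here, and counts over members and pathway genes leave them out. The denominator was dropped after its values had been seen. Xist and 4 Y-linked genes and sums of 12 marker lists without the most abundant gene were added after the values were seen. Gene positions came from GENCODE on GRCm38, and promoter sequences from RefSeq on GRCm38.p6.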

Additional observations from a re-analysis of the deposited data

Results flagged for a closer look

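In Bbs8+/+ replicate 2, Rp2 stood at 11.19 CPM, far from the other 3 Bbs8+/+ libraries. Aipl1 in Bbs8-/- replicate 1 was at 616.7 CPM, below a tight group of the other 3. The RPE marker sum of Bbs8+/+ replicate 2, 39125 CPM, lay below the other 3. Of 48 groups of 4 libraries examined, 3 held such a value, and chance gives about 1 in 20 groups. Reads outside annotated genes, which no comparison used, made up 20.24% of reads on average in Bbs8-/- and 17.48% in Bbs8+/+, and the groups did not overlap.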

How the results depend on the processing

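The number of transport genes called lower was 5 or 6 of 9 and the number called higher 0 under each of 17 alternatives, and 6 was reached without Bbs8+/+ replicate 1, when Pde6d passed. Pathway genes called lower numbered from 8 to 10 and called higher from 2 to 4. Over all genes tested, from 571 to 927 were called lower and from 394 to 1005 higher under the same alternatives. Unc119, Arl3, Rpgrip1, Aipl1, Tulp1 and Ttc8 kept their direction and call under all 16 alternatives with a test of each, and Rpgr passed the threshold under none, with adjusted p from 0.06694 to 0.2901. Leaving out 1 library gave log2 fold changes from -0.0073 to 0.3097 for Unc119b, from -0.4744 to 0.0724 for Pde6d and from -0.1538 to 0.4468 for Rp2. Gngt1, tried after seeing the data, gave -0.3658 without Bbs8+/+ replicate 1.

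At an adjusted p under 0.01, 571 genes were lower and 394 higher, by construction fewer than 877 and 704. With library size alone 657 were lower and 1005 higher, so 39.5% of calls were lower in place of 55.5%, and the median of all genes shifted by 0.0886 on the log2 scale. The log2 ratios of marker sums were then 0.3949 for RPE, -1.191 for rods, -0.9882 for shared photoreceptor, 0.1727 for amacrine, 0.5757 for Müller glia, -2.6982 for lens and -1.249 for erythrocyte markers. Without the most abundant gene of 12 of the 13 lists, an alternative chosen after seeing the data, the RPE ratio turned from 0.3063 to -0.1103 and the microglial ratio, whose groups overlapped, from -0.233 to 0.0797. Those of shared photoreceptor, bipolar, amacrine and Müller glia markers were -1.0061, -0.3567, 1.136 and 0.2838. With shared photoreceptor markers as denominator, the log2 ratios were 0.0139 for Unc119, 0.2072 for Arl3, 0.3934 for Rpgrip1, 0.3146 for Aipl1 and -0.0381 for Tulp1. The cause was not tested.

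The replicate block gave 827 genes lower and 650 higher, with 5 transport genes lower. Correlations of libraries with the same number were -0.0285, -0.0154, 0.0065 and 0.0086, where all pairs across genotypes lay between -0.0285 and 0.0295. No pairing by number was detected, and values this small cannot exclude shared litters. Counting error was largest for Rp2, Rpgr and Unc119b, at 11.2% of the mean or more.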
